A study of Mus musculus with 14 samples.

Results

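Adult mice lacking tenascin-R (Tnr) were compared with adult wild-type mice across the genes measured in RNA of the entire brain. The samples were 6 of the 14 arrays of the series, chosen by their titles: 3 labelled wild type adult and 3 labelled tnr null adult. The other 8 arrays hold wild type (n = 4) and knockout (n = 4) at postnatal day 7 (P7) and serve here for side by side values. Per the labels, all animals were untreated males of strain C57Bl, the adults were 2 to 3 months old, and wild-type and Tnr-deficient mice were kept under the same housing. How the null allele was made, and whether any arrays share an animal, is not in the labels, so a p-value here reflects the spread between arrays, which may be technical. A brain homogenate mixes all cell types, so fewer cells of a type and less RNA per cell cannot be told apart in any result given here.

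Tenascin-R is a large glycoprotein of the brain's extracellular matrix, made by oligodendrocytes and some neurons. It binds the lecticans, proteoglycans that hang on hyaluronan, and holds them together in perineuronal nets, the matrix coats around many parvalbumin-containing interneurons. It also lies at nodes of Ranvier and binds adhesion molecules of the immunoglobulin family, such as contactin-1, and subunits of the sodium channel.

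No probe set of the array was annotated to Tnr (0 of 12488), so the genotype labels could not be checked on the deleted gene. The arrays were evenly scaled, with median deposited signals of 81.4 to 85.9. Genotype did not order the 6 adult arrays as wholes: the mean correlation of an array with those of its own genotype was 0.939 to 0.955, and with those of the other genotype 0.938 to 0.956. A pair of arrays stood apart in single genes. Wild-type adult array 1 had a signal of 416 for Xist, the RNA of the inactive X chromosome of females, against 4.96 to 25.1 on the other 5 arrays, which goes against its label of male. Knockout adult array 1 had a signal of 3822 for growth hormone (Gh), a pituitary transcript, against 151 to 201 on the other 5. Outside the adults, wild-type P7 array 2 also had Xist signal, against its label of male. Summed defining markers of neurons, oligodendrocytes, astrocytes, microglia, endothelium, choroid plexus, meninges, cerebellum and striatum overlapped between the genotypes, and those of blood did not. The blood sum was made up almost wholly of Hba-a1, a hemoglobin chain.

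No gene passed the test for a difference between adult knockout and wild-type brain. Of 8355 probe sets tested, 0 were called by limma at a Benjamini-Hochberg adjusted p under 0.05 (0.00%), and the smallest adjusted p was 0.793. At an unadjusted p under 0.05 there were 198 probe sets (2.37%; 123 without wild-type array 3), where 418 would be expected if no gene differed and the tests were independent. Of these, 78 were higher (0.934%) and 120 lower (1.44%) in the knockout. On 743 probe sets (8.89%) all 3 knockout arrays lay on the same side of all 3 wild-type arrays, 310 with the knockout higher (3.71%) and 433 with the knockout lower (5.18%). Since no probe set was called, all differences named from here on are values that did not pass the test.

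The precision differed with brightness. Among the brightest 2785 probe sets, with a mean wild-type signal of 266 to 10980, the median standard error of the log2 difference was 0.219, and the 95% confidence interval lay within a 2-fold change either way for 93.1%. In the middle 2785 the median standard error was 0.252 and the share 82.3%. Among the dimmest 2785, with a mean signal of up to 106, it was 0.383 and the share 42.7%. A difference of more than 2-fold was measured on 104 probe sets, of which 88 were in the dimmest set, 13 in the middle and 3 in the brightest. Changes of 2-fold or more were thus outside the interval for 6075 of the 8355 probe sets (72.7%).

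**Figure D1:**
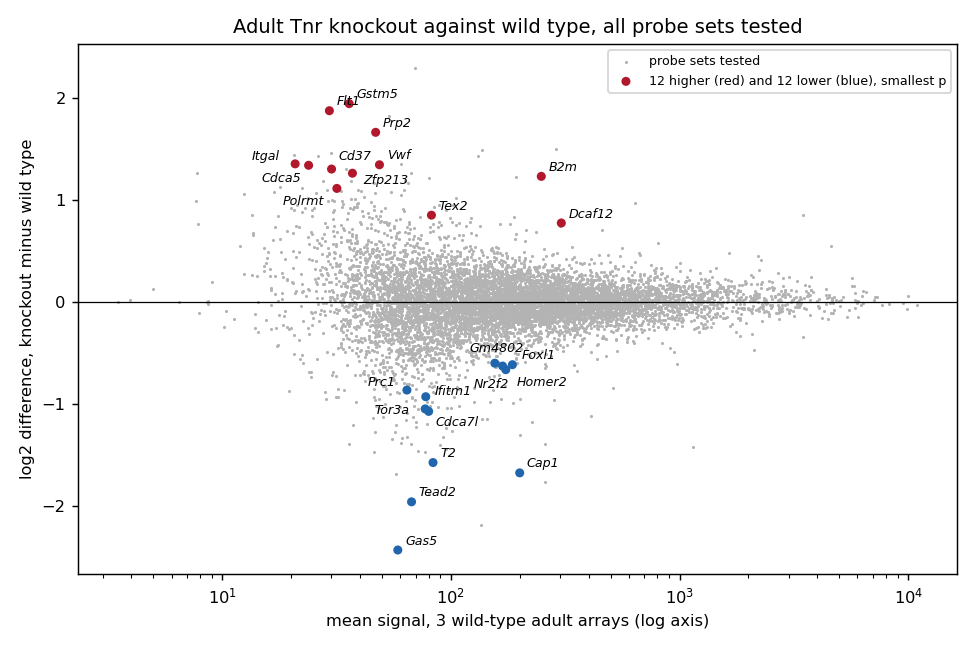
Log2 difference (knockout minus wild type, vertical axis) against the mean signal of the 3 wild-type adult arrays (horizontal log axis) for the 8355 probe sets tested. The points spread widely at low signal and narrow toward high signal, and the 24 genes of smallest p, 12 higher (red) and 12 lower (blue), lie mostly at signals under 200.

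The genes of smallest p are given next: the 12 higher and the 12 lower ones with 1 gene symbol and no overlap between the groups. They were picked by their p in this comparison, so their values describe the top of the ranking and support nothing. Their unadjusted p ranged from 0.000242 to 0.00847 among the higher and from 0.00013 to 0.00854 among the lower genes, with adjusted p from 0.793 to 1. All 24 kept their direction in the settings in which their probe set was tested, 20 to 27 for each. This carries no weight, since genes were picked for groups without overlap. Leaving out an array could not reverse the direction of such a gene.

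Tead2, a DNA-binding partner of the Hippo pathway's coactivators, had the smallest p. Its signal was 67.7, 45.1 and 88.9 on the wild-type arrays and 14.9, 11.7 and 26.4 on the knockout arrays, so that the groups lay well apart at a low level. The log2 difference was -1.96 ± 0.38 (SE, n = 3 against 3, limma unadjusted p = 0.00013, adjusted p = 0.793). Gas5, a spliced non-coding RNA that hosts small nucleolar RNAs, had a signal of 74.3, 41.6 and 59.9 in wild type and of 11.5, 9.89 and 5.81 in knockout on probe set 98530_at. As 2 of the 3 knockout values lay under the floor of 10.1 and were raised to it, the fitted difference, 5.40-fold lower, depends on the floor. On the log2 scale it was -2.43, with a confidence interval from -3.54 to -1.33. It ranged from -2.71 with a lower floor to -1.82 with a pseudocount in place of the floor. A second probe set, 98531_g_at, read Gas5 at 1305, 996 and 1129 in wild type and at 808, 131 and 725 in knockout. All 3 knockout arrays were again lower, and knockout array 2 far lower than the others: the log2 difference was -1.42 ± 0.50, and -0.57 without that array.

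The other lower genes had diverse functions. T2, so named in the probe annotation, had signals of 61.3, 90.6 and 98.5 in wild type and 17.9, 31.6 and 36.5 in knockout, a log2 difference of -1.58 ± 0.39. At P7 its mean was 11.8 in wild type and 15.3 in knockout. T2 thus probably passed the filter on low signal through the wild-type adult arrays, where it was high, and was tested in only 22 settings. Ifitm1, an interferon-induced membrane protein, had 73.3, 65.7 and 93.9 against 39.5, 44.7 and 36.9, with a log2 difference of -0.93 ± 0.24. Cap1, which binds adenylyl cyclase and actin, had 138, 196 and 266 against 67.9, 53.0 and 61.0. Its log2 difference of -1.68 ± 0.54 was the largest of the lower genes with a wild-type mean above 100. Prc1, a bundler of spindle microtubules (-0.87 ± 0.26), and Cdca7l, a cell-cycle-associated nuclear protein (-1.07 ± 0.30), were lower from wild-type means of 64.2 and 79.9. Homer2, a scaffold of the postsynaptic density, had 207, 166 and 148 in wild type and 120, 84.0 and 127 in knockout, a difference of -0.67 ± 0.21. The transcription factors Nr2f2 (-0.63 ± 0.21, and -0.42 without knockout array 1) and Foxl1 (-0.62 ± 0.20) and the predicted gene Gm4802 (-0.60 ± 0.19) differed least among the 12. Tor3a (-1.05 ± 0.33), a torsin ATPase, completes them and is described with the neighbours of Tnr.

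Among the higher genes, Flt1, a receptor for vascular endothelial growth factor, had the smallest p. On 98453_at its signal was 41.5, 28.5 and 18.2 in wild type and 124, 102 and 83.8 in knockout, a log2 difference of 1.87 ± 0.39 (limma adjusted p = 0.793). The other Flt1 probe set, 98452_at, did not share it: the means were 139 ± 22.7 (SD, n = 3) and 142 ± 18.8 (n = 3), and the log2 difference was 0.04 ± 0.21. B2m, the light chain of class I antigen-presenting molecules, had 349, 230 and 166 in wild type and 597, 499 and 578 in knockout, a log2 difference of 1.23 ± 0.33. Dcaf12, a substrate adaptor of a ubiquitin ligase, had 295, 324 and 293 against 481, 583 and 498. With a log2 difference of 0.77 ± 0.21, Dcaf12 was the brightest of the 12 and had tight values in both groups.

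The remaining higher genes were dim or divided between probe sets. Tex2, a lipid-transfer protein of the endoplasmic reticulum, had 84.6, 68.7 and 93.2 against 152, 122 and 172 (0.85 ± 0.24). Vwf, the von Willebrand factor of endothelium and platelets, had 85.5, 37.9 and 22.6 against 115, 114 and 91.6 (1.34 ± 0.42), so that the wild-type arrays differed more among themselves than the knockout arrays did. Cd37 (1.30 ± 0.42) and Itgal (1.35 ± 0.45), surface proteins of leukocytes, had wild-type means of 30.0 and 20.8. Itgal had P7 means of 27.9 in wild type and 33.5 in knockout and was tested in 22 settings. It may have passed the filter through the knockout adult arrays, where it was high. Cdca5 (1.34 ± 0.40), a cohesin regulator, had a wild-type mean of 23.8. Zfp213 (1.26 ± 0.36), a zinc finger protein, had a wild-type mean of 37.1. Polrmt, the mitochondrial RNA polymerase, was higher on 92336_at (1.11 ± 0.31) and not on 160738_at (-0.09 ± 0.21). Gstm5, a glutathione transferase, was higher on 100631_r_at (1.94 ± 0.49), while its 3 other probe sets differed by 0.03 to 0.48. Prp2 (annotated name) was higher on 93650_i_at by 1.66 ± 0.41 and lower on 93651_r_at by a log2 difference of -1.18 ± 0.49. Its higher value came from knockout arrays 2 and 3, at 275 and 199, against 59.1 on knockout array 1. Without knockout array 1, Prp2 on 93650_i_at had an adjusted p of 0.00352. Over the array, 1088 genes had more than 1 probe set, and in 534 of them (49.1%) all probe sets lay on the same side of zero; 934 of the 1088 had exactly 2.

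**Figure D2:**
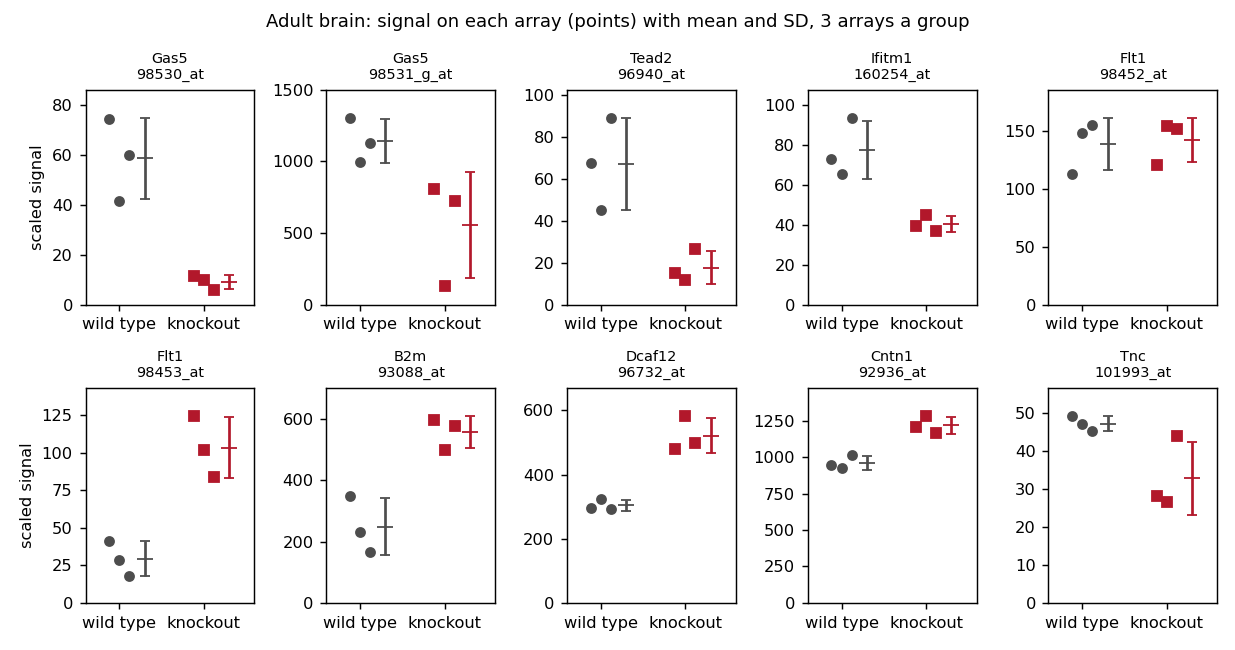
Scaled signal (vertical axis, from 0) on each of the 3 wild-type (grey circles) and 3 knockout (red squares) adult arrays for 10 probe sets of 8 genes, with the mean and SD beside the points. The knockout points of Gas5, Tead2 and Ifitm1 lie below and those of Flt1 98453_at, B2m, Dcaf12 and Cntn1 above all wild-type points, while those of Flt1 98452_at overlap them.

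Over all probe sets, 3.71% were apart and higher and 5.18% apart and lower. How many genes would be apart on all their probe sets if none differed was not worked out. Of the 1088 genes with more than 1 probe set, 5 had groups without overlap on each of them, in the same direction. They were the Gas5 transcript, Dhh (a hedgehog ligand), Qsox1 (a thiol oxidase), Rhoc (a small GTPase) and Stat5a (a transcription factor of cytokine signalling), named after their values were seen. Dhh was lower by a log2 difference of -0.46 ± 0.21 and -0.59 ± 0.33, Qsox1 by -0.60 ± 0.57 and -1.04 ± 0.43, and Rhoc by -0.28 ± 0.17 and -0.41 ± 0.38. Stat5a was higher by 0.31 ± 0.22 and 0.40 ± 0.18. Probe sets of a gene read the same RNA extracts and are not replicates.

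The same 24 genes were set beside their values at P7, which come from other arrays. At P7, 1 of 8355 probe sets was called by limma (0.0120%, Gas5 98531_g_at at -2.95 ± 0.43), and 507 had an unadjusted p under 0.05 (6.07%). Of the 12 genes higher in adults, 8 were also higher in the knockout at P7, and of the 12 lower, 4 were also lower. Over all probe sets, 50.6% were higher and 49.4% lower at P7. The median log2 difference of the higher genes was 1.32 in adults and 0.20 at P7, and that of the lower genes -0.99 and 0.09. Tex2 (0.58 ± 0.21) and Gas5 98530_at were those with the same direction and an unadjusted p under 0.05 at P7. For the latter 3 of the 4 knockout P7 values lay at the floor, so its fitted P7 difference depends on the floor. B2m (-0.77 ± 0.29) and Gstm5 100631_r_at (-1.10 ± 0.43) were lower at P7, opposite to adults.

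Whether the knockout effect differed with age (adult minus P7) was tested as an interaction in the same limma fit. It was called for 0 of 8355 probe sets (0.00%), and 324 probe sets reached an unadjusted p under 0.05 (3.88%). That number was 205 without wild-type adult array 3 and 510 without knockout P7 array 4. The smallest p belonged to Gstm5 100631_r_at (3.04 ± 0.65), B2m (2.00 ± 0.44) and Tead2 (-2.20 ± 0.51), each with an adjusted p of 0.991. The 24 genes were chosen for their adult differences, which enter this term.

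The closest relatives and binding partners of tenascin-R in the matrix showed no difference that passed the test. Of 20 genes listed as tenascins, lecticans, link proteins and hyaluronan synthases, 12 were on the array and 7 passed the filter on low signal; Acan, Cd44, Hapln1, Has1 and Has2 did not. Among the 7, 0 had an unadjusted p under 0.05, against 0.911% of all 6257 genes in the higher and 1.31% in the lower direction. The median log2 difference was 0.11, against -0.00029 over all genes, with 5 positive and 2 negative values. Bcan, encoding brevican, a lectican bound by tenascin-R, had 540, 627 and 671 in wild type and 605, 651 and 582 in knockout. These values overlapped fully, with a log2 difference of 0.0047 and a 95% confidence interval from -0.58 to 0.59. Ncan, encoding neurocan, had 119, 93.9 and 132 against 115, 141 and 134 on its brighter probe set (0.19 ± 0.17), and 0.40 ± 0.56 on the dimmer. Vcan, encoding versican, differed by 0.22 ± 0.34 from a wild-type mean of 74.9.

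Tnc, encoding tenascin-C, had 49.1, 46.9 and 45.1 in wild type and 28.0, 26.5 and 43.8 in knockout. All 3 knockout arrays were lower, 1 of them only just, and the log2 difference was -0.56 ± 0.34 with an interval from -1.28 to 0.17. Tnxb, encoding tenascin-X, gave 21.5, 27.5 and 18.3 against 52.6, 53.3 and 24.1, overlapping at a level where background weighs heavily (0.88 ± 0.54). Ptprz1, whose secreted form phosphacan binds tenascin-R, differed by 0.32 ± 0.24, 0.11 ± 0.25 and 0.03 ± 0.35 on 3 probe sets. Has3, a hyaluronan synthase, had 81.9, 56.2 and 86.7 against 69.3, 58.1 and 22.9, a difference of -0.70 ± 0.42 that was -0.21 without knockout array 3.

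Among 20 listed receptors and partners of tenascin-R, 14 were on the array and 10 passed the filter; Cntn3, Egfr, Itga5 and Itga8 did not. Of the 10, 0 had an unadjusted p under 0.05 on the brightest probe set, 2 were apart and higher (3.96% of all genes) and 1 apart and lower (5.16%). The median log2 difference was 0.04. Cntn1, encoding contactin-1, a neuronal receptor of tenascin-R, had 942, 923 and 1016 in wild type and 1204, 1282 and 1164 in knockout. The knockout arrays were all higher and the spread within each group was small, with a log2 difference of 0.34 ± 0.16, an interval from -0.0023 to 0.68, an unadjusted p of 0.0514 and an adjusted p of 1. Fn1, encoding fibronectin, a matrix ligand of integrins, had 246, 281 and 269 against 196, 215 and 237 (-0.30 ± 0.14), and at P7 differed by 0.33.

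Some of the adhesion molecules gave differences that depended on the probe set. Ncam1, the neural cell adhesion molecule, had 781, 782 and 734 in wild type and 797, 870 and 875 in knockout on 100153_at (0.15 ± 0.22), but 151, 141 and 200 against 127, 109 and 108 on 161750_f_at (-0.51 ± 0.23). The groups were apart on both, in opposite directions. Itgav, an integrin subunit, gave -0.30, -0.12 and 1.10 on 3 probe sets, the last with 1 wild-type array under the floor and at 0.30 without it. Itgb1, the integrin β1 subunit, differed by 0.11 ± 0.16 and -0.11 ± 0.21. Mag, a myelin glycoprotein, differed by 0.06 ± 0.58 and -0.16 ± 0.24, and Thy1, a surface protein of neurons, by 0.07 ± 0.20 from a wild-type mean of 2994. For Nrcam (0.02 ± 0.25), Chl1 (-0.15 ± 0.33) and L1cam (-0.38 ± 0.62), adhesion molecules of the L1 family, the groups overlapped.

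Enzymes that cut or build the matrix likewise gave no call. Of 25 matrix proteases and inhibitors listed, 16 were on the array and 9 tested, with 0 at an unadjusted p under 0.05. Hyal2, a hyaluronidase, had 104, 98.5 and 77.3 in wild type and 153, 151 and 129 in knockout, apart in adults (0.63 ± 0.32) and at P7 (0.65 ± 0.28). Mmp14, a membrane-bound metalloproteinase (-0.23 ± 0.18), Timp1, a metalloproteinase inhibitor (0.42 ± 0.36), and Plau, a plasminogen activator (0.43 ± 0.49), overlapped. Of 23 genes of proteoglycan and carbohydrate synthesis, 13 were on the array and 11 tested, with 0 at an unadjusted p under 0.05 and 10 with an interval within a 2-fold change. Values here ranged from -0.30 for Ext1, a heparan sulfate polymerase, to 0.34 for Chst2, a sulfotransferase whose second probe set gave -0.18.

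The other extracellular matrix genes were the largest matrix list, with 33 of 36 tested. Their median log2 difference was 0.12, with 24 positive and 8 negative values, and it stayed positive under every alternative tried (0.0862 to 0.142). The alternatives reuse the same arrays and are no separate support. At an unadjusted p under 0.05 there were 2 higher and 1 lower gene, against 0.911% and 1.31% of all genes. Hspg2, encoding perlecan of basement membranes, had 44.96, 40.2 and 49.1 in wild type and 65.5, 130 and 50.6 in knockout (0.76 ± 0.33), and 0.37 without knockout array 2. Sdc1, encoding the proteoglycan syndecan-1, had 26.6, 18.7 and 24.0 against 56.8, 48.2 and 29.7 (0.92 ± 0.41) and was also apart and higher at P7, where 2 of the 4 wild-type values lay at the floor. Lama5, a laminin chain, was lower on 99931_at, with 89.4, 39.8 and 82.3 against 39.3, 39.5 and 16.2 (-1.18 ± 0.44, and -0.75 without knockout array 3), but not on 161702_f_at (-0.02 ± 0.42). Gpc1, encoding the proteoglycan glypican-1, had 470, 404 and 356 against 594, 454 and 461 (0.29 ± 0.16).

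**Figure D3:**
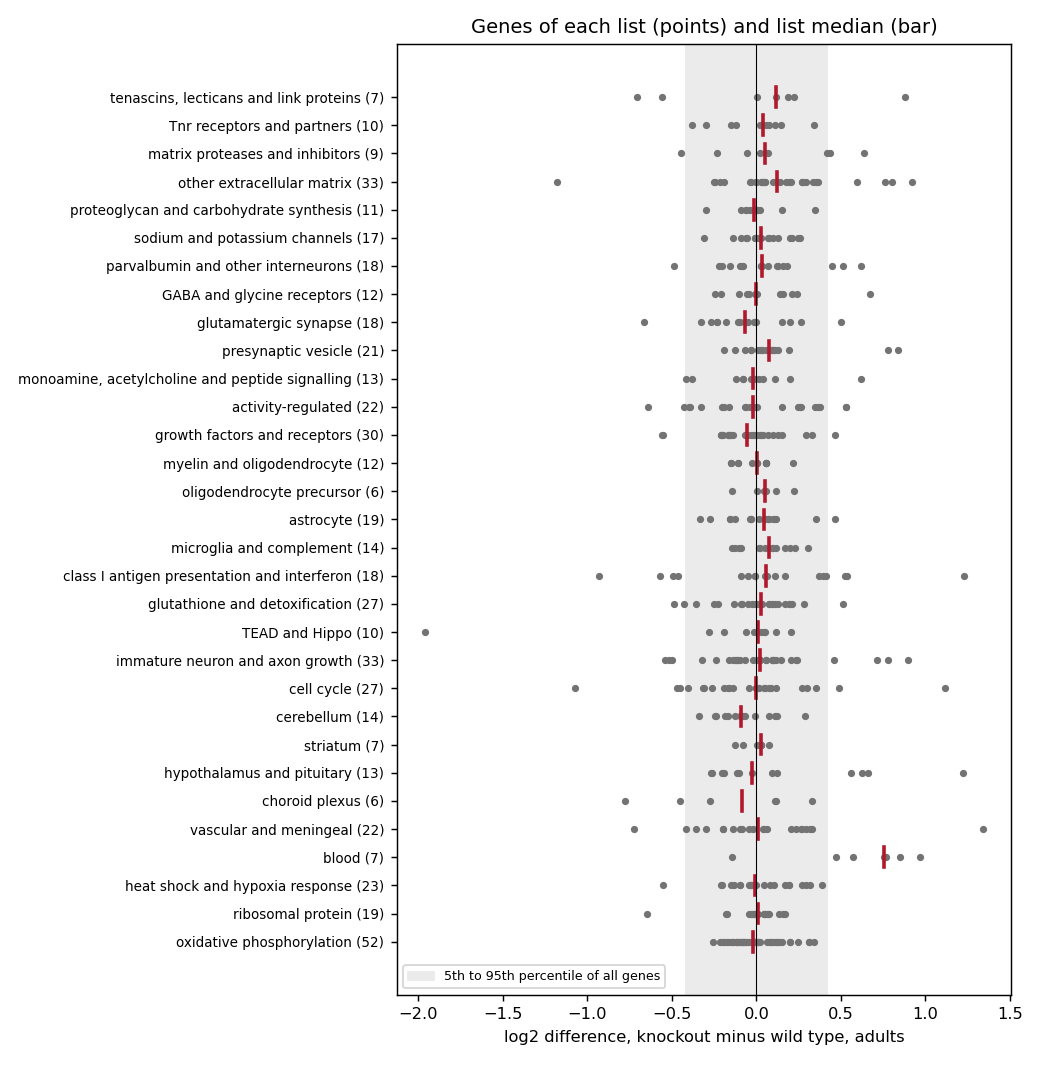
Log2 difference in adults (knockout minus wild type, horizontal axis) of each tested gene (grey points) in 31 gene lists, 1 probe set per gene, with the number tested in parentheses and the list's median as a red bar. Shading spans the 5th to 95th percentile of single genes over all 6257 and applies to the points, not to the medians. The median of the blood list is 0.75, and the other 30 medians lie between -0.09 and 0.12.

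Channel and interneuron genes gave no call. Of 17 sodium and potassium channel genes tested, 0 had an unadjusted p under 0.05 on the brightest probe set of each. On these probe sets the median was 0.03 and the values ran from -0.31 to 0.26. Kcnma1, the large-conductance calcium-activated potassium channel, differed by 0.25 ± 0.22 and Kcnd2, a transient potassium channel, by 0.21 ± 0.25 and 0.31 ± 0.46. Kcnab1, a potassium channel subunit, differed by 0.26 ± 0.35 on its brighter probe set. On the dimmer 162087_f_at it was apart and lower, by -1.09 ± 0.43 (limma unadjusted p = 0.0225), and by -0.64 without knockout array 2. Among 18 genes of parvalbumin and other interneurons the median was 0.03. At an unadjusted p under 0.05 there was 1 higher gene, against 0.911% of all genes. It was Dlx2, a homeobox factor of interneuron precursors, with 15.5, 22.5 and 15.7 against 20.02, 24.8 and 40.1 (0.62 ± 0.29, and 0.34 without knockout array 3). At P7 Dlx2 had means of 152 in wild type and 189 in knockout, so its adult signal was dim beside that which let it pass the filter. Dlx1, its relative, gave 59.9, 45.04 and 31.9 against 55.2, 74.95 and 60.7 (0.51 ± 0.26, and 0.28 without wild-type array 3). Slc32a1, the vesicular transporter of GABA, had 1407, 1604 and 1518 against 1488, 2022 and 1576 (0.16 ± 0.17). Pvalb, encoding parvalbumin and named after its values were seen, had 2348 ± 213 (SD, n = 3) against 2187 ± 96.8 (n = 3), a log2 difference of -0.10 ± 0.23.

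Synaptic genes were likewise without calls. Of 12 GABA and glycine receptor genes, 0 had an unadjusted p under 0.05, and Glrb, the glycine receptor's β subunit, differed by -0.21 ± 0.19. Of 18 glutamatergic synapse genes, 14 were lower, with a median of -0.07 that turned to 0.06 without knockout array 1. Homer2 was the 1 gene of this list with an unadjusted p under 0.05, against 1.31% of all genes in the lower direction. Dlg3, a scaffold of glutamate receptors, had 256, 215 and 235 against 215, 190 and 160 (-0.33 ± 0.22), apart by a small margin. Of 21 presynaptic vesicle genes, 16 were higher, with a median of 0.07 that turned to -0.015 without knockout array 2. Vamp2, the synaptic vesicle fusion protein synaptobrevin, had 3448, 3881 and 3649 against 3464, 4460 and 3742 on 98926_at (0.08 ± 0.15), and gave -0.07 ± 0.70 on 98925_at. Rab3a, a vesicle GTPase, had 61.1, 192 and 109 against 190, 255 and 134 (0.78 ± 0.39, and 0.37 without wild-type array 1). Among 13 genes of monoamine, acetylcholine and peptide signalling, 0 had an unadjusted p under 0.05, and Htr3a, a serotonin receptor, gave the highest value at 0.62 ± 0.36, which was 0.12 without wild-type array 3.

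Genes induced by neuronal activity lay on either side of zero. Of 22 tested, 10 were higher and 12 lower, with a median of -0.02. Atf3, a stress-induced transcription factor, was lower on both probe sets: 92.3, 112 and 108 in wild type and 62.0, 64.3 and 73.7 in knockout on 104155_f_at (-0.64 ± 0.24), and -1.39 ± 0.53 on 104156_r_at. Fosb, an immediate early gene, had 218, 206 and 227 against 177, 173 and 168, without overlap (-0.33 ± 0.17). Nr4a1, an orphan nuclear receptor, lay the other way, with 162, 148 and 143 against 243, 220 and 192 (0.53 ± 0.26). Dusp6, a phosphatase acting on ERK kinases, had 294, 242 and 306 against 228, 230 and 170 (-0.43 ± 0.29).

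Glial lists centred near zero. Of 12 myelin and oligodendrocyte genes, 0 had an unadjusted p under 0.05, the median was 0.0033 and the values ran from -0.15 for Gsn, encoding the actin-severing protein gelsolin, to 0.21 for Ugt8a, which makes the myelin lipid galactosylceramide. Mbp, encoding myelin basic protein and named after its values were seen, had 4669 ± 111 (SD, n = 3) against 4345 ± 416 (n = 3), a log2 difference of -0.11 ± 0.32. All 6 tested genes of oligodendrocyte precursors had an interval within a 2-fold change, Sox10, a lineage transcription factor, at 0.06 ± 0.20 and 0.17 ± 0.43. Of 19 astrocyte genes 0 had an unadjusted p under 0.05, and Glul, encoding glutamine synthetase, had 431, 458 and 493 against 420, 290 and 398 on 161826_r_at (-0.34 ± 0.17). On 94852_at Glul overlapped (-0.19 ± 0.34). Of 14 microglia and complement genes 10 were higher, with a median of 0.07 that stayed positive under the alternatives (0.00547 to 0.152). Cst3, encoding cystatin C, had 6906, 5402 and 4790 against 7497, 5806 and 6605 on 99586_at (0.23 ± 0.21), and gave 0.28 ± 0.24 on 161522_i_at.

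Class I antigen presentation and interferon genes were divided. Of 18 tested, 10 were higher and 8 lower, with a median of 0.06. The groups were apart for 3 higher and 3 lower genes, against 3.96% and 5.16% of all genes. B2m, described above, was the 1 higher gene at an unadjusted p under 0.05 and Ifitm1 the 1 lower, against 0.911% and 1.31% of all genes. Ifnar1, a receptor chain for type I interferon, had 96.2, 65.8 and 58.2 against 106, 102 and 101 (0.53 ± 0.29). Irf7, an interferon regulatory factor, lay the other way with 102, 100.3 and 123 against 53.9, 80.9 and 88.9 (-0.57 ± 0.29, and -0.35 without knockout array 1). The heavy chains that pair with the B2m product, named after their values were seen, gave 0.37 ± 0.35 and 0.26 ± 0.36 for H2-D1 and 0.17 ± 0.21, 0.53 ± 0.51 and -0.34 ± 0.48 for H2-K1. Probe sets of these heavy chains can bind near-identical family members, so their values are uncertain by gene.

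Transcripts of blood were the list that stood farthest from zero. Of 16 listed genes 11 were on the array and 7 tested; Epb42, Ltf, Ngp and S100a9 did not pass the filter. Their median log2 difference was 0.75, with 6 of 7 higher and a range over the alternatives from 0.517 to 0.914. Of the 7, 2 were higher at an unadjusted p under 0.05, against 0.911% of all genes. Hba-a1, the α chain of hemoglobin, had 2679, 3947 and 3735 in wild type and 4361, 9936 and 5340 in knockout, a log2 difference of 0.85 ± 0.38. Knockout array 2 was the highest and the groups did not overlap; without it the difference was 0.50. Hbb-b2, a β chain, had 505, 989 and 430 against 823, 1574 and 1240 (0.97 ± 0.43), with 1 wild-type array above the lowest knockout array. Near-identical globin genes may not be separated by these probe sets. Alas2, the red cell enzyme of heme synthesis, gave 70.1, 131 and 125 against 111, 350 and 146 (0.77 ± 0.59, and 0.28 without knockout array 2), and S100a8, of neutrophils, 0.75 ± 0.60.

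The number of blood genes at an unadjusted p under 0.05 went from 2 to 0 without wild-type array 1, without wild-type array 3 or without knockout array 2, and to 1 without knockout array 3. It was also 0 with no filter, with no mean-variance trend and without both arrays with Xist signal (wild-type adult array 1 and wild-type P7 array 2). Summed over the blood markers, the signal was 2889 to 4251 in wild type and 4784 to 10510 in knockout. Hba-a1 made up most of this sum, at 2679 to 3947 in wild type and 4361 to 9936 in knockout. The markers Alas2, Slc4a1, S100a8 and Camp each overlapped between the genotypes. Pituitary markers moved with 1 library: their sum was 456 to 558 in wild type and 324 to 4584 in knockout, the highest on knockout array 1. On that array Gh stood at 3822, and proopiomelanocortin (Pomc) at 201 against 48.0 to 103 elsewhere. The part of blood or pituitary tissue in the other differences was not tested.

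**Figure D4:**
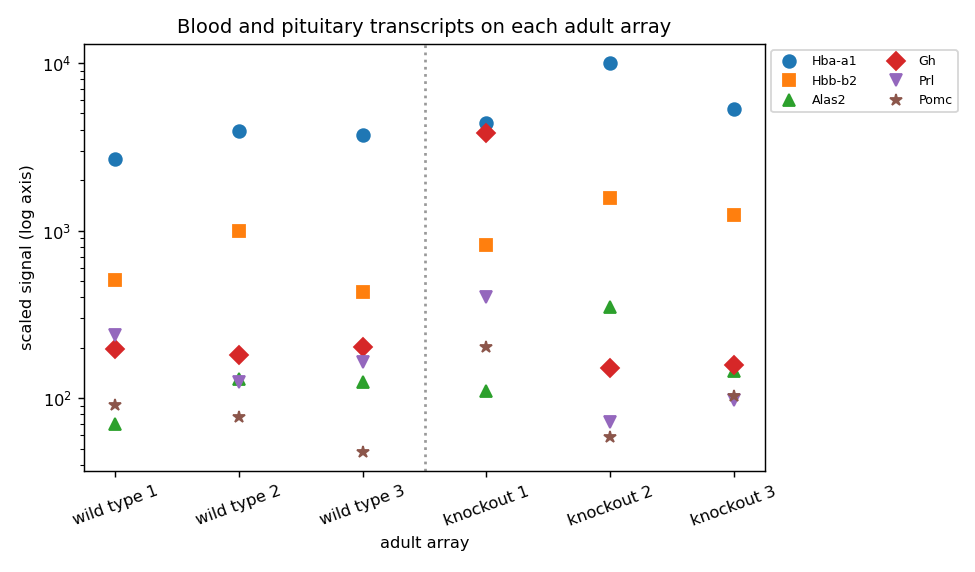
Scaled signal (vertical log axis) of 3 blood transcripts (Hba-a1, Hbb-b2, Alas2) and 3 pituitary transcripts (Gh, Prl, Pomc) on each of the 6 adult arrays. The hemoglobin points are highest on knockout array 2, with Hba-a1 at 9936, and the pituitary points on knockout array 1, with Gh at 3822.

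Vascular and meningeal genes were evenly divided, with 11 of 22 higher and a median of 0.01. Vwf was the 1 higher gene at an unadjusted p under 0.05 and Rgs5 the 1 lower, against 0.911% and 1.31% of all genes. Rgs5, a pericyte regulator of G-protein signalling, had 125, 109 and 227 against 79.6, 86.0 and 100.5 on 103294_at (-0.72 ± 0.33, and -0.40 without wild-type array 3). On 96180_at its groups overlapped (-0.38 ± 0.39). Acta2, smooth muscle actin, had 94.3, 115 and 111 against 132, 119 and 149 (0.32 ± 0.22). Summed endothelial markers overlapped, at 884 to 944 in wild type and 854 to 946 in knockout. Of 6 choroid plexus genes, Cab39l was lower (-0.45 ± 0.19), and Ttr, encoding transthyretin, had 852, 679 and 870 against 1027, 820 and 766 (0.12 ± 0.25).

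Growth and proliferation genes gave few differences. Of 30 growth factors and receptors 0 had an unadjusted p under 0.05, and Igf2, a growth factor of choroid plexus and meninges, had 766, 761 and 840 against 807, 1083 and 1113 (0.33 ± 0.16). Of 33 genes of immature neurons and axon growth 2 were lower at an unadjusted p under 0.05, against 1.31% of all genes. They were Nrp1, a semaphorin receptor, with 175, 166 and 233 against 127, 147 and 127 on 95016_at (-0.50 ± 0.21, but 0.05 ± 0.39 on 92773_at), and Nes, encoding nestin of neural progenitors, with 109, 149 and 155 against 72.9, 89.3 and 132 (-0.52 ± 0.23, and -0.32 without knockout array 1). Of 27 cell cycle genes 12 were higher and 13 lower. Cdca7l was the 1 gene of this list with an unadjusted p under 0.05, against 1.31% of all genes in the lower direction. Prc1 and Cdca5, described above, are not in the list. Cdc20, an activator of the anaphase-promoting complex (-0.40 ± 0.24), and Mki67, the proliferation antigen Ki-67 (-0.47 ± 0.30 on 161931_r_at), were apart and lower. On the other Mki67 probe set 5 of the 6 adult arrays lay at the floor. Rrm1, a subunit of ribonucleotide reductase, was apart and higher, with 31.5, 16.4 and 19.0 against 46.4, 64.5 and 33.5 (1.12 ± 0.62).

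Most genes of the housekeeping groups had narrow intervals. Of 52 oxidative phosphorylation genes, 49 had an interval within a 2-fold change, 0 had an unadjusted p under 0.05, and the median was -0.02. Ndufb6, a subunit of complex I, had 1447, 1421 and 1299 against 1772, 1652 and 1525 (0.25 ± 0.22), and Sdhb, of complex II, 1104, 997 and 992 against 1146, 1120 and 1169 (0.15 ± 0.16). Of 19 ribosomal protein genes, 18 had such an interval, and Rpl13a had the lowest value, with 263, 241 and 267 against 253, 118 and 147 (-0.65 ± 0.31, and -0.41 without knockout array 2). Of 23 heat shock and hypoxia genes, 0 had an unadjusted p under 0.05, and Vegfa, the ligand of Flt1, had 96.7, 104 and 119 against 54.4, 82.7 and 84.4 (-0.55 ± 0.60, and -0.35 without knockout array 1). Of 27 glutathione and detoxification genes 2 were lower at an unadjusted p under 0.05, against 1.31% of all genes. These were Gpx1, a glutathione peroxidase, with 304, 370 and 424 against 251, 235 and 331 (-0.43 ± 0.17), and Gstm2, a glutathione transferase, with 244, 356 and 324 against 219, 193 and 241 (-0.49 ± 0.22). Of 10 TEAD and Hippo genes, Tead2 was the 1 with an unadjusted p under 0.05, against 1.31% of all genes in the lower direction. Nf2, encoding merlin, an upstream regulator of the pathway, gave -0.28 ± 0.21 and Mob1a, a kinase adaptor, 0.38 ± 0.25 and 0.20 ± 0.18.

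Regional lists gave no gene at an unadjusted p under 0.05 for cerebellum (14 tested, median -0.09), striatum (7 tested, median 0.03) or hypothalamus and pituitary (13 tested, median -0.02). Of the cerebellar genes 10 were lower and 4 higher, and the median stayed negative under every alternative (-0.151 to -0.0285). Ppp1r17, a phosphatase inhibitor of Purkinje cells, differed by -0.34 ± 0.40 and -0.04 ± 0.33 on its probe sets. Neurod1, a transcription factor of granule cells, differed by -0.24 ± 0.36, and by 0.0025 without knockout array 1. Car8, of Purkinje cells, had 906, 694 and 745 in wild type and 1288, 736 and 894 in knockout (0.28 ± 0.29), and Zic1, of granule cells, 1338, 1634 and 1390 against 1556, 1387 and 1810 (0.12 ± 0.24). Penk, encoding the striatal peptide enkephalin, had 3046, 3353 and 3803 against 3085, 3973 and 3342 on 94516_f_at (0.03 ± 0.15). The dimmer Penk probe set, 94517_r_at, gave -0.44 ± 0.39. Avp, encoding vasopressin, had 109, 129 and 87.7 against 161, 196 and 153, without overlap (0.66 ± 0.54).

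Genes near Tnr on chromosome 1 were examined as a group, since DNA that flanks a mutant allele is inherited with it. Within 15 protein-coding genes on either side, 12 probe sets of 10 genes were tested, 5 higher and 7 lower, with a median log2 difference of -0.08. An unadjusted p under 0.05 was found for 3 of the 12, against 2.37% of all probe sets, and those were Tor3a and both probe sets of Gas5. Gas5 lies beyond 10 protein-coding gene starts on one side of Tnr, and Tor3a is the 12th such gene on the other. Tor3a had 98.7, 66.4 and 66.4 in wild type and 52.0, 26.5 and 35.5 in knockout. No other probe set near Tnr had groups without overlap. Astn1, a neuron-glia adhesion protein, had 432, 545 and 555 against 189, 179 and 670, so that knockout arrays 1 and 2 were low and knockout array 3 was not (-0.84 ± 0.56, and -1.46 without it). Cop1, a ubiquitin ligase and the nearest gene tested, differed by -0.14 ± 0.34 and 0.36 ± 0.39. On the other side Mrps14, of the mitochondrial ribosome (-0.16 ± 0.17), Cacybp (0.21 ± 0.17) and Rabgap1l (0.15 ± 0.39) overlapped. The remaining neighbours, Ralgps2 (-0.02 ± 0.30), 2810025M15Rik (0.32 ± 0.20) and Cryzl2 (0.21 ± 0.24), overlapped too. The genetic background around the Tnr locus was not tested.

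**Figure D5:**
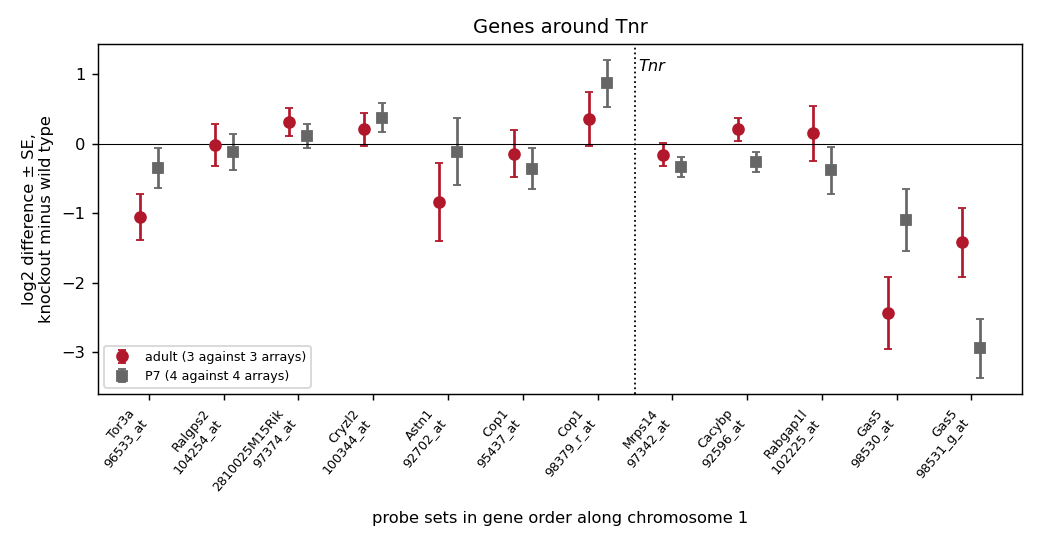
Log2 difference (knockout minus wild type) with standard error for the 12 probe sets of 10 genes near Tnr, in gene order, in adults (red, 3 against 3 arrays) and at P7 (grey, 4 against 4 arrays); the dotted line marks the place of Tnr. Both Gas5 probe sets lie below zero at both ages, 98531_g_at at -1.42 in adults; for 98530_at most knockout values were at the floor at both ages, so its points and error bars depend on the floor.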

How the data were processed

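RNA of adult brains was measured on 6 single-colour oligonucleotide arrays, with 8 further arrays at P7. The authors deposited 1 linear signal intensity per probe set, made with MAS5 per the submitters' processing notes; version, scaling target and genome build were not given in the sources used here. Each array was scaled to a common 2% trimmed mean, values under the 20th percentile (10.1) were raised to it, and log2 was taken. Control probe sets (66) were left out, and a probe set entered the test if 3 or more arrays placed it no lower than their 40th percentile: 8355, of which 7525 had 1 gene symbol, for 6257 genes. The probe annotation gave 1 symbol for 10855 probe sets, several for 396 and none for 1237; 10839 were matched to RefSeq (GRCm38.p6) for gene order.

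Differences were fitted with limma 3.58.1 in R 4.3.3 (4 group means over 14 arrays, eBayes with a mean-variance trend, 10 residual and 4.97 prior degrees of freedom), two-sided, with Benjamini-Hochberg adjustment over all 8355. Precision is limited by the number of arrays (median standard error 0.269). The procedure was tested on simulated data. Means ± SD are of scaled signal, and log2 differences are ± SE. Gene lists (31, using each gene's brightest probe set) are described by counts and medians. Named are the 12 genes of smallest p in each direction without overlap, all tested members of the tenascin and partner lists, up to 4 of smallest p from each other list, neighbours of Tnr and the 3 of smallest p for the age difference; others are said to be named after their values were seen. The members, lists and tests were chosen with earlier results of these data known.

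The alternatives were 2 other scalings, a pseudocount or a lower floor, no filter, a stricter and an adult-only filter, no trend, array weights, 1 probe set per gene, adult arrays only, replicate number as a block, leaving out the arrays with Xist signal, and leaving out each array. The arrays with Xist signal were wild-type adult array 1 and wild-type P7 array 2. All alternatives reuse the same arrays, so a sign kept under them is no separate support.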

Additional observations from a re-analysis of the deposited data

Results flagged for a closer look

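Groups of 3 adult arrays were too small for a test of single arrays. Among the 24 genes of smallest p, with the second Gas5 probe set, 50 groups of 4 P7 arrays were tested for an array far from the others, and 2 stood out, about what chance gives at 1 in 20. Gas5 (98530_at) had a signal of 17.1 on knockout P7 array 4, against 5.81 to 6.88 on the other 3. Prc1 (95032_at) had 136 on the same array, against 88.5 to 91.0 on the other 3.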

How the results depend on the processing

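The count of 0 calls in adults held under the 2 other scalings, the pseudocount, the lower floor, the stricter and adult-only filters, no trend, array weights, 1 probe set per gene, adult arrays only and without both arrays with Xist signal. Without the filter 63 probe sets were called in adults (10 higher, 53 lower) and 17 for the difference between ages; 59 of the 63 are not in the filtered test, 49 had an adult array at the floor, and the median signal of the higher group was 25.2. Leaving out 1 array gave 0 to 1 calls in adults and 0 to 1 for the age difference. In adults these were 98498_at without wild-type array 2, 94240_i_at without wild-type array 3 and Prp2 without knockout array 1. For the age difference they were 94240_i_at without wild-type adult array 3 and Gstm5 without wild-type P7 array 1. Array weights also gave 1 call for the age difference, Gstm5; the cause was not tested. Adult probe sets at an unadjusted p under 0.05 numbered 98 with the stricter filter, 312 with quantile normalization, 331 with adult arrays only, 443 with array weights, 736 with no filter and 123 without wild-type adult array 3, against 198. For the age difference they numbered 194 with the stricter filter, 205 without wild-type adult array 3, 510 without knockout P7 array 4, 693 with array weights and 721 with no filter, against 324.

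Of 196 named probe sets, 152 kept their sign in the settings in which they were tested, 20 to 27 for each, and 44 did not. The 196 include those picked for groups without overlap, whose sign could not change when an array was left out. Called under some alternative were 5: Flt1, Gas5 (98530_at), Ifitm1 and T2 without the filter, and Prp2 as above. With replicate number as a block, 0 probe sets were called in adults and 0 for the age difference. Deviations of same-numbered adult arrays from their group means had correlations of 0.332, 0.00439 and -0.0666. Those of differently numbered adult arrays ran from -0.256 to 0.249. Same-numbered P7 arrays gave 0.0896, -0.222, -0.352 and 0.375. So few values cannot decide whether the numbers pair the samples. Low signal limits the dim probe sets, and 3 arrays a group limit all.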

Other observations

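In adults 198 of the 8355 probe sets had an unadjusted p under 0.05 (2.37%), fewer than the 418 expected if no gene differed. The dimmest 2785 held 111 of them, the middle 68 and the brightest 2785 only 19. Of these 19, 10 were higher and 9 lower. No overlap between the groups was found for 14 of the 19, against 8.89% of all probe sets, but these were picked by p. Of those not yet described, 8 are named here after their values were seen; they did not pass the adjusted test. Rhob, a small GTPase of endosomes and actin, had 1948, 1623 and 1379 in wild type and 2643, 1987 and 2238 in knockout (0.48 ± 0.18). Rnf141, a RING finger protein, had 687, 723 and 573 against 954, 878 and 924 (0.48 ± 0.21), and Arih1, a ubiquitin ligase, 376, 315 and 209 against 723, 414 and 392 (0.75 ± 0.32). Pdhb, a subunit of pyruvate dehydrogenase, had 1028, 990 and 900 against 614, 479 and 874, with log2 -0.61 ± 0.22. Enpep, an aminopeptidase of the angiotensin pathway, had 289, 287 and 307 against 222, 224 and 225 (-0.39 ± 0.16). Timm17b, of the mitochondrial import channel, had 438, 431 and 558 against 259, 379 and 360 (-0.53 ± 0.22). Ctps, which makes CTP (-0.38 ± 0.16), and Arf3, a GTPase of the Golgi (-0.37 ± 0.16), were also apart and lower. At P7 these genes differed by -0.12 to 0.29.

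A probe set with no gene symbol, 93568_i_at, had the smallest p among the bright ones, with 262, 342 and 262 in wild type and 617, 1034 and 822 in knockout (1.49 ± 0.33, adjusted p = 0.812), and differed by -0.05 at P7.

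Of the 8355 probe sets tested, 8.89% were apart in adults. The number expected at both ages if no gene differed was not worked out. Apart in the same direction at both ages were 8 probe sets, each with 1 gene symbol. Beside Hyal2, Sdc1 and Gas5 they were Rer1 (-0.16 in adults and -0.23 at P7), a sorting receptor of the Golgi, Tagln (0.23 and 0.24), an actin-binding protein of smooth muscle, Maged1 (0.13 and 0.46), Nt5dc2 (0.26 and 0.80) and Siva1 (0.33 and 0.48), an inducer of cell death. The 95% confidence interval of the adult difference held zero for 6 of the 8, Sdc1 and Gas5 being the exceptions.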
